A study of Mus musculus with 6 samples.

Results

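Disease-associated microglia (DAM) were compared with homeostatic microglia in the subventricular zone (SVZ) of mice 7 days after photothrombotic ischemia of the cortex (PT D7). Cells of both subtypes came from the same 2 PT D7 libraries, and the subtype of each cell was taken from the authors' own annotation. The comparison rested on 79 of the 658 cells of the series, 29 DAM and 50 homeostatic microglia, and on 79 of the 114 microglia at PT D7, in 2 of 6 libraries. Library 1 held 16 DAM and 18 homeostatic cells, and library 2 held 13 DAM and 32 homeostatic cells. The remaining 35 microglia at PT D7 carried other subtype names.

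The mice were tamoxifen-treated Nestin-CreERT2:R26-yfp animals on a C57BL/6N background, 8 to 12 weeks old at the tamoxifen injections, in which a Cre recombinase driven by Nestin marks neural stem and progenitor cells (NSPCs) with a yellow fluorescent protein. PT was made with the dye Rose Bengal and light on the cortex, so the dissected ipsilateral SVZ lies away from the lesion. All cells compared therefore carried the same alleles and had the same injury at the same time. Tissue of several mice was digested together, and the sources used here do not say which mice a library holds. The p-values and standard errors (SE) rest only on a spread between these libraries, which may be technical. It was taken from the trend over all genes, not from the libraries of each gene alone. Microglia, gated on CD11b and low CD45, were sequenced with mCEL-Seq2, a plate method that reads the 3′ end of each mRNA and counts molecules by unique molecular identifiers (UMIs).

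Microglia are the resident macrophages of the brain. In the healthy tissue they are recognised by purinergic and chemokine receptors such as P2ry12 and Cx3cr1 and by Tmem119. Around degenerating or damaged tissue, microglia that take up debris lower these genes and express lipid-binding proteins, lysosomal enzymes and receptors for phagocytosis, a state known as disease-associated. It is commonly described in an early stage with Apoe, B2m, ferritin and cathepsins and a later stage with Axl, Clec7a, Lpl, Cst7 and Spp1.

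The subtypes were drawn by clustering these same counts on variable genes, so a difference in a gene that entered the clustering describes how the clusters were made and does not test them. The levels, folds and counts of calls below are a description. The sources used here do not list the authors' variable genes, so the 2000 most variable genes of all microglia were rebuilt, and a p-value is printed only for genes outside that set. Gene levels are given as CPM, which are UMIs per 1000000 UMIs of the tested genes after TMM scaling, in the 4 sums of UMIs (each subtype in each library). A gene was called at an edgeR quasi-likelihood adjusted p under 0.05 with the library as a block. A gene that passed the filter on low counts only through the subtype where it was high had to differ, so for called genes it was checked whether both sums of the lower subtype reached the level of the filter by themselves, and a p-value is printed only where they did.

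The DAM cells held more UMIs than the homeostatic cells of the same libraries. The median DAM cell held 6250.5 UMIs in library 1 and 6856 in library 2, against 3201.5 and 3878.5 in homeostatic cells, a ratio of 1.95 and 1.77. The 4 sums ranged from 62454 to 122840 UMIs. The median share of mitochondrial UMIs was 7.31% and 8.33% in DAM and 6.71% and 8.86% in homeostatic cells. Between 29.7% and 35.6% of the UMIs of a sum fell on 9 predicted Gm genes, of which 8 were tested and none was called. All 8 had a log2 fold change, DAM over homeostatic, above 0, with a median of 0.44. Their share was 35.6% in DAM against 31.4% in homeostatic cells of library 1, and 33.9% against 29.7% in library 2. The part of the UMI number in the differences was not tested. With all cells thinned to 1000 UMIs 183 genes were left to test and 26 were called, 14 higher and 12 lower in DAM.

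Of 1104 genes tested, 187 were called (16.9%), 108 of them higher in DAM (9.78%) and 79 lower (7.16%). All 108 genes higher in DAM and 77 of the 79 lower ones had the same direction in both libraries, as had 755 of all 1104 genes tested. The calls were made from the same 2 libraries, so this agreement does not test them. Over the genes tested the log2 fold changes had a median of -0.01. Without the library block 69 genes were called, and DESeq2 called 15, of which 10 were higher in DAM, but gave no adjusted p for 770 genes, 77 of the 187 among them. Of the 187 genes, 110 reached the filter in the lower subtype as well and 77 did not. Fits that left out library 1 or library 2 and took their spread from all microglia sums called 54 and 18 genes. Library sizes without TMM scaling moved the split to 43 higher and 74 lower, and the median of all genes to -0.22.

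**Figure D1:**
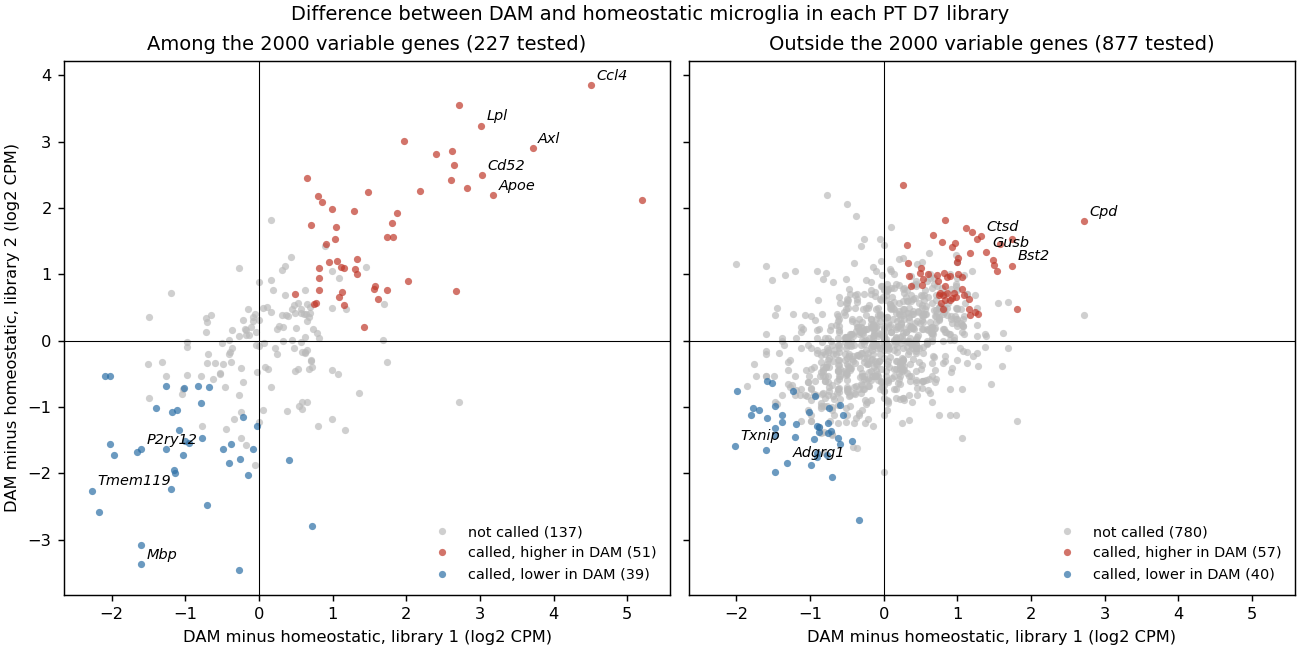
Difference between DAM and homeostatic microglia in library 1 (x axis) and library 2 (y axis), each in log2 CPM with a prior count of 2, for the genes tested. The left panel holds the 227 tested genes among the 2000 variable genes and the right panel the 877 others, with called genes in red (higher in DAM) or blue (lower). The called genes of both panels lie mainly in the upper right and lower left corners, and the largest differences are in the left panel.

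The 5 markers by which these DAM are known were higher in DAM in both libraries, although Spp1 was so by few cells. Apoe, a lipid carrier (GRCm39 chr7:19430034-19434947, minus strand), stood at 13978 CPM in DAM and 1516 CPM in homeostatic cells of library 1, and at 18813 and 4084 CPM in library 2. Both DAM sums lay above both homeostatic sums, as in 319 of all 1104 genes tested, while 302 genes had both below. The log2 fold change of Apoe was 2.68 ± 0.22 (SE of the fit, 2 libraries), or 6.39-fold, with 3.18 in library 1 and 2.20 in library 2. Cd52, a small lipid-anchored surface glycoprotein (chr4:133809759-133822401, minus strand), stood at 659 against 56.9 CPM in library 1 and at 962 against 148 CPM in library 2. Its log2 fold change was 2.90 ± 0.36. Cd52 passed the filter only through the DAM sums, so this difference is a value with no test.

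Axl, a receptor tyrosine kinase that binds apoptotic cells through Gas6 (chr7:25456535-25488329, minus strand), had 26 and 23 UMIs in the DAM sums and 0 and 2 in the homeostatic sums. The ratio of its pooled levels was 22.5 (95% exact interval 5.91 to 191, counting error only). Clec7a, the beta-glucan receptor Dectin-1 (chr6:129438554-129449742, minus strand), had 11 and 17 UMIs in DAM and 0 and 1 in homeostatic cells, a ratio of 25.7 (4.25 to 1052). Spp1, the secreted protein osteopontin (chr5:104582165-104589235, plus strand), had 113 and 9 UMIs in DAM and 0 in both homeostatic sums. It did not pass the filter on low counts, and its pooled level was at least 37.4-fold higher in DAM, against a limit of 3 UMIs over both homeostatic sums. In library 1, 1 cell held 63 of the 113 Spp1 UMIs, and without the highest cell of each sum 50 and 2 UMIs were left in DAM.

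The markers were uneven among the DAM cells themselves. All 29 DAM cells held Apoe, from 27.9 to 283 UMIs per 10000 in library 1 (median 74.8) and from 9.69 to 536 in library 2 (median 102), where homeostatic cells had medians of 11.7 and 16.1. Axl was found in 20 of 29 DAM cells, Clec7a in 13, Cd52 in 23 and Spp1 in 9. At least 3 of the 5 markers were found in 19 of 29 DAM cells and in 1 of 50 homeostatic cells, and all 5 in 5 DAM cells. In cells thinned to 1000 UMIs at least 3 were found in 5 of 29 DAM and 0 of 50 homeostatic cells, and at least 2 in 17 and 6. After each cell had been thinned to 1000 UMIs, Cd52 remained in 44.8% of DAM cells (26.4 to 64.3%, exact Clopper-Pearson) and 14.0% of homeostatic cells (5.82 to 26.7%), against 0 of 84 NSPCs of the same libraries, which allows up to 3.57% as 3 counts of the total and 4.30% by the exact interval. Clec7a and Spp1 then remained in 10.3% and 13.8% of DAM cells, in 0 of 50 homeostatic cells, which allows up to 6% as 3 counts of the total and 7.11% by the exact interval, and in 0 and 1 of the 84 NSPCs. The NSPCs counted here are all 84 cells of these libraries that were not annotated as microglia, with a median of 5930.5 UMIs per cell. Apoe was found in 96.6% of thinned DAM cells, 76.0% of homeostatic cells and 69.0% of NSPCs. Axl was found in 13.8% of thinned DAM cells, 0 of 50 homeostatic cells, with the same limits as for Clec7a, and 4.76% of NSPCs. Without thinning, Axl was found in 18 of 84 NSPCs and 2 of 50 homeostatic cells.

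**Figure D2:**
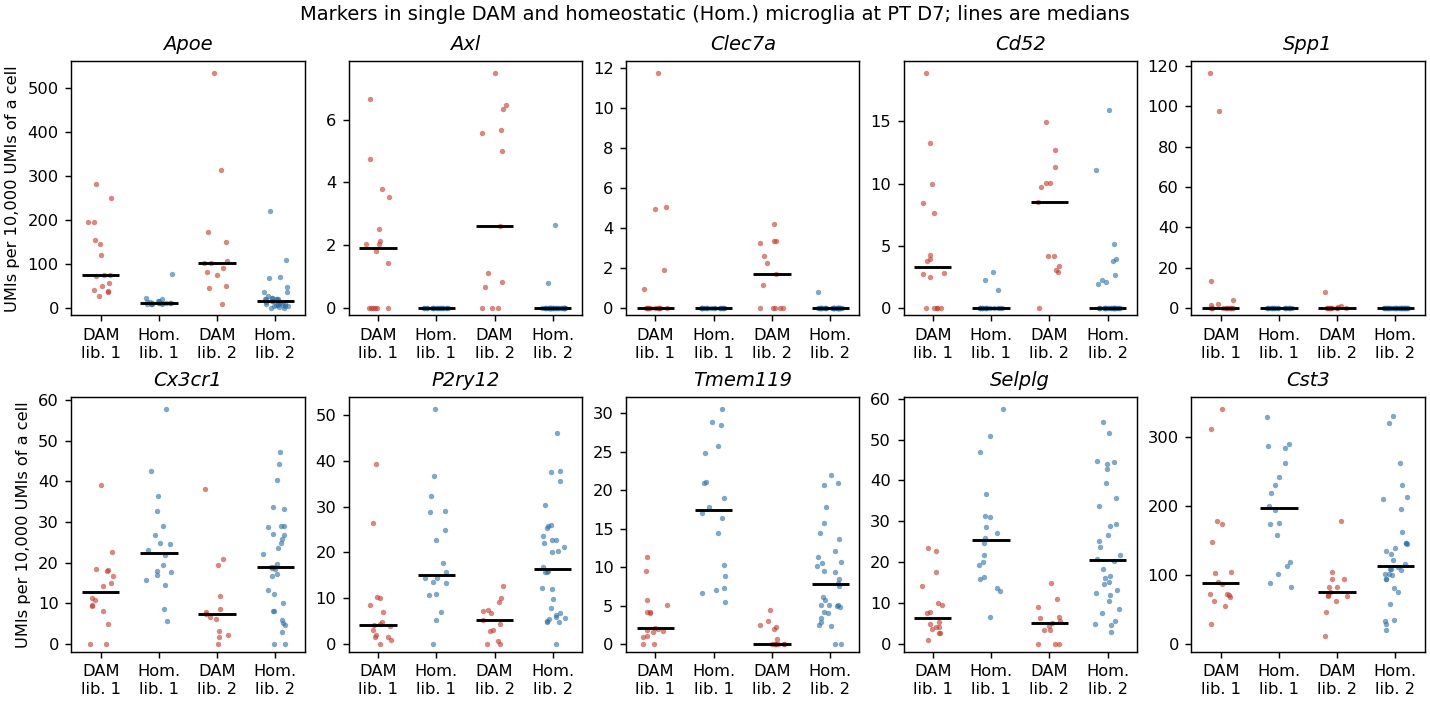
UMIs per 10000 UMIs of a cell (y axis) of 5 DAM markers (upper row) and 5 homeostatic genes (lower row) in the DAM cells (red, 16 and 13) and homeostatic cells (blue, 18 and 32) of each PT D7 library, with black lines at the medians. Apoe is shifted in nearly all DAM cells, Spp1 is high in 2 cells of library 1, and P2ry12, Tmem119 and Selplg are shifted down in DAM of both libraries.

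Of the early-stage genes, 9 of 10 were tested, with a median log2 fold change of 1.12. All 9 were higher in DAM, against 9.78% of all genes tested. By DESeq2 3 were called, without library 1 or library 2 4 and 2, and 5 without the library block or without TMM scaling. Beside Apoe these were B2m, H2-D1, Cstb, Ctsb, Ctsd, Fth1, Timp2 and Tyrobp. Of the 24 late-stage genes 15 were tested, of which 13 were higher and none lower, with a median of 1.87. By DESeq2 3 were called, without library 1 or library 2 7 and 5, and without cells that held at least 3 neuroblast and progenitor genes 1 of 9, with a median of 0.69. The largest after Clec7a and Axl were Ank, a transporter of pyrophosphate, and Lpl, lipoprotein lipase. Axl, Clec7a, Ank and Lpl passed the filter only through the DAM sums, so their differences are values with no test. With at least 10 UMIs in each sum 7 late-stage genes were tested and 5 were higher, with a median of 1.03. Ank had 32 UMIs in DAM against 2 in homeostatic cells (ratio 14.7, interval 3.75 to 127). Lpl stood at 1115 against 114 CPM in library 1 and at 933 against 74.2 CPM in library 2, with a log2 fold change of 3.46 ± 0.36. In library 1, 1 cell held 76.1% of the Lpl UMIs of the DAM, and without the highest cell of each sum the log2 fold change was 2.53 ± 0.53. Some late-stage genes under the filter had more UMIs in DAM, and not all genes under the filter are given here. Cst7, a cysteine protease inhibitor, had 11 and 8 UMIs in DAM against 0 and 1. Itgax, the integrin CD11c, had 4 and 7 UMIs in DAM against 1 and 1, and Igf1 had 17 and 1 against 0 and 2, so that Igf1 was high in library 1 alone. Without the highest cell of each sum 6 and 0 Igf1 UMIs were left in DAM against 0 and 1 in homeostatic cells.

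Lilr4b, an inhibitory leukocyte receptor, had 12 and 20 UMIs in DAM and 0 in both homeostatic sums, at least 9.80-fold higher against 3 UMIs over both. Lyz1, a lysozyme whose reads cannot be told here from those of its close copy Lyz2, stood at 1318 against 227 CPM in library 1 and at 2100 against 276 CPM in library 2. Its log2 fold change was 2.77 ± 0.29, and 1.90 ± 0.32 without the highest cell of each sum, since 1 cell of library 2 held 71.5% of its DAM UMIs.

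The homeostatic genes were lower in DAM without exception among those called. Of 45 genes of the list 40 were tested, and 39 of 40 lay below 0, with a median of -0.74. Among them 17 were lower (against 7.16% of all genes tested) and none was higher. Without TMM scaling 19 were lower, without the library block 10, without library 1 or library 2 9 and 5, and by DESeq2 4. Tmem119, a transmembrane protein that marks microglia, stood at 368 against 1876 CPM in library 1 and at 204 against 1082 CPM in library 2. Its log2 fold change was -2.37 ± 0.28, so the homeostatic level was 5.16 times the DAM level. P2ry12, the ADP receptor that steers microglial processes, stood at 786 against 2445 CPM and at 656 against 2090 CPM (-1.65 ± 0.25). Its relative P2ry13 stood at 330 against 1422 and 306 against 955 CPM (-1.88 ± 0.28). Selplg, the selectin ligand PSGL-1, stood at 1001 against 3222 and 817 against 2673 CPM (-1.70 ± 0.24). In these 4 genes both DAM sums lay below both homeostatic sums by similar amounts. Both DAM sums lay below both homeostatic sums in 302 of all 1104 genes tested.

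Cx3cr1, the fractalkine receptor, was reduced less, at 1597 against 2786 CPM in library 1 and 1327 against 2567 CPM in library 2 (-0.88 ± 0.23). Slc2a5, a fructose transporter, had 4 and 1 UMIs in DAM against 17 and 21 (-2.99 ± 0.61), and the cysteine protease inhibitor Cst3, at 13078 against 21020 and 9188 against 14955 CPM, differed by -0.69 ± 0.20. Siglech, Crybb1 and Sall1, a transcription factor of microglial identity, were also lower. Slc2a5 and Crybb1 passed the filter only through the homeostatic sums, so their differences are values with no test. Gpr34, a lysophosphatidylserine receptor, stood at 697 against 986 and 788 against 1008 CPM (-0.42 ± 0.26). It was not called. After thinning P2ry12 was found in 27.6% of DAM and 84.0% of homeostatic cells, against 5.95% of NSPCs.

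Genes outside the 2000 variable genes did not take part in the rebuilt clustering space, so their differences were tested. Of 877 such genes 97 were called (11.1%), 57 higher in DAM (6.50%) and 40 lower (4.56%). All 97 had the same direction in both libraries, as had 586 of the 877. Of the called genes, 45 of the 57 higher and 18 of the 40 lower ones reached the filter in the lower subtype as well. Outside the 3000 most variable genes 73 of 772 were called. DESeq2 also called 1 of the 97 genes, Ctsd, and gave no adjusted p for 40 of them, and 23 genes outside the variable set were called without the library block. A gene outside this set can still be correlated with those inside it.

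Among the genes higher in DAM outside the variable set, Cpd, a carboxypeptidase of the Golgi (chr11:76668034-76737892, minus strand), had the largest fold change. It had 12 and 25 UMIs in DAM and 0 and 8 in homeostatic cells (log2 2.43 ± 0.56). Mapkapk2, a kinase downstream of p38, stood at 190 against 37.9 and 175 against 42.4 CPM (2.11 ± 0.66). Bri3, a small lysosomal membrane protein, stood at 165 against 133 and 379 against 53.0 CPM, so that the difference came mainly from library 2 (1.72 ± 0.51). The others of the 8 largest were Bst2, the ribosomal protein gene Rpl36al, the predicted genes Gm2000 and Gm10126 and the pseudogene Pcna-ps2, with log2 fold changes from 1.61 to 1.86. Such copies can share reads with their parent genes and remain uncertain.

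Among the genes lower in DAM outside the variable set, Txnip, an inhibitor of thioredoxin and glucose uptake (chr3:96465267-96469201, plus strand), stood at 101 against 493 CPM in library 1 and at 102 against 361 CPM in library 2 (-2.04 ± 0.45). Adgrg1, the adhesion receptor GPR56 of the homeostatic list, stood at 152 against 417 and 117 against 488 CPM (-1.74 ± 0.41). Both DAM sums of these genes lay under both homeostatic sums, as in 239 of the 877 genes tested outside the variable set. The histone methyltransferase gene Kmt2c and the zinc finger gene Zfp871 had larger differences of -2.30 ± 0.74 and -2.28 ± 0.70 but rested on 2 and 2 and on 4 and 1 UMIs in DAM. Akna, Rtn4rl1, Fam63b and Srsf11 completed the 8 largest, between -1.81 and -1.72. All 8 passed the filter only through the homeostatic sums. Cpd, Mapkapk2, Bri3, Bst2, Rpl36al, Gm10126 and Pcna-ps2 passed it only through the DAM sums. The differences of all these genes are values with no test. Of the homeostatic list 24 genes lay outside the variable set, and 7 of these were lower (against 4.56% of all genes tested there) and none higher.

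A part of the lysosomal genes was higher in DAM. Of the 41 lysosomal proteases and hydrolases of the list 21 were tested, of which 9 were higher and none lower, with a median of 0.42, and of 32 genes of the lysosomal membrane and proton pump 15 were tested, of which 5 were higher and none lower, with a median of 0.70. Of the members tested, 15 of 21 and 11 of 15 lay above 0. In thinned cells the median of the hydrolases was 0.03, and in cells with at most 10% mitochondrial UMIs 7 were higher and 2 lower. Outside the variable set 5 of 17 hydrolases and 3 of 13 membrane genes were higher, against 6.50% of all genes tested there. The lists are broader than their names, since that of the hydrolases also holds Npc2 and the inhibitor Cstb, and that of the membrane genes holds Grn. Over all genes tested 9.78% were called higher. DESeq2 called 2 hydrolases and 1 membrane gene, and 1 of each was called without library 2. Ctsd, the aspartic protease cathepsin D, stood at 7021 against 2786 CPM in library 1 and at 7452 against 2482 CPM in library 2. The DAM sums were 2.75-fold higher, with a log2 fold change of 1.46 ± 0.22 (edgeR adjusted p = 6.81e-09). Ctsa, protective protein cathepsin A, stood at 621 against 303 and 788 against 265 CPM (1.33 ± 0.31, edgeR adjusted p = 0.000434). Gusb, beta-glucuronidase, stood at 393 against 133 and 656 against 244 CPM (1.47 ± 0.36, edgeR adjusted p = 0.00111). Npc2, which hands cholesterol on inside the lysosome, stood at 684 against 227 and 729 against 297 CPM (1.41 ± 0.31, edgeR adjusted p = 0.000197). In all 4 genes the difference was of similar size in both libraries.

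Among variable genes, Ctsb stood at 4435 against 1573 CPM and 6752 against 1411 CPM (1.89 ± 0.23) and the tetraspanin Cd63 at 874 against 171 and 1225 against 233 CPM (2.37 ± 0.31). Ctsl, Ctsz and the inhibitor Cstb were also higher, by 1.18 to 2.19 on the log2 scale. Cstb passed the filter only through the DAM sums, so its difference is a value with no test. Of the genes of the membrane list outside the variable set, Grn, the precursor of the lysosomal granulins, stood at 2712 against 1478 and 2654 against 1347 CPM (0.93 ± 0.23, edgeR adjusted p = 0.00138). Lamp1, a main glycoprotein of the lysosomal membrane, stood at 1039 against 815 and 1342 against 668 CPM (0.70 ± 0.25, edgeR adjusted p = 0.0402). Cd68, a lysosomal glycoprotein of macrophages, stood at 722 against 398 and 933 against 445.5 CPM (0.98 ± 0.28, edgeR adjusted p = 0.00769). Lamp1 was the smallest of these differences and the closest to the threshold.

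Many lysosomal promoters are known to carry the sequence CACGTG, the core of the element bound by TFEB and its relatives, and 3 promoters of lysosomal genes that were higher in DAM and lie outside the variable set are shown for it. The sequences are those of RefSeq on GRCm38.p6, 250 bases before to 50 after a start site, on the gene's strand, with CACGTG, which reads alike on both strands, in capitals. They lie at chr7:142387778-142388077 (Ctsd, minus strand), chr2:164833523-164833822 (Ctsa, plus strand, the second of its 2 listed start sites) and chr8:13158911-13159210 (Lamp1, plus strand).
Ctsd: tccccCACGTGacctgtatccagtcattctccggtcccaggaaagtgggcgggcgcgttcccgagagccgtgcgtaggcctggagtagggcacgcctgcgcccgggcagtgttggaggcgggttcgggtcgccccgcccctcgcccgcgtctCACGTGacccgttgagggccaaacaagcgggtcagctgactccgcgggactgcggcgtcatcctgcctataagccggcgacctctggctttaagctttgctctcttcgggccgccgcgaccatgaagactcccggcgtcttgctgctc
Ctsa: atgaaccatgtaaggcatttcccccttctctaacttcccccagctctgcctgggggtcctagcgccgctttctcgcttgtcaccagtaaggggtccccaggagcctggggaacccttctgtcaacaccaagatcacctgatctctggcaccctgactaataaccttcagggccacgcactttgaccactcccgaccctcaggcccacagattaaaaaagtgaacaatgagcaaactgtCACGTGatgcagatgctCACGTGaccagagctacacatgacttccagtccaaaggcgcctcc
Lamp1: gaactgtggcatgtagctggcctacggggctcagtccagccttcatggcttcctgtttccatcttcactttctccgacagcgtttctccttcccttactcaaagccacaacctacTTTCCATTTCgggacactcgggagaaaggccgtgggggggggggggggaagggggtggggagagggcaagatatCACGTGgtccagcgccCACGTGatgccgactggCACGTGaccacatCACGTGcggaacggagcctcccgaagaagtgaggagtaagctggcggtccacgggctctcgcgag
The Ctsd window held CACGTG 2 times, 245 and 98 bases before the start site, the Ctsa window 2 times, and the Lamp1 window 4 times, 61, 45, 28 and 15 bases before it. The remaining capitals in the Lamp1 window mark, on the opposite strand, GAAA followed by any 2 bases and GAAA again, with no overlap between the 2 motifs. Of the 14 lysosomal genes higher in DAM 12 had a promoter in the table, and 5 of these held CACGTG (Ctsd, Ctsa, Ctsl, Lamp1 and Atp6v1a), against 2 of 16 lysosomal genes tested and not called and 15 of 57 over all lysosomal genes of the lists. The share was 7.15% of all 32851 promoter windows, 14.2% of the genes tested and 12% of all genes higher in DAM. A match of letters is a description and not a bound site.

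Genes of antigen presentation on MHC class I were partly higher in DAM, where 9.78% of all genes tested were called higher. Of 24 genes 8 were tested, of which B2m and H2-D1 were higher and none lower, with a median of 0.57. Both calls were lost by DESeq2 and without either library. B2m, the light chain of MHC class I (GRCm39 chr2:121977957-121983594, plus strand), stood at 6577 against 3014 CPM in library 1 and at 7044 against 3235 CPM in library 2. The difference was 1.12 ± 0.22 and was the same in both libraries. H2-D1, a heavy chain whose reads cannot be told from those of near copies here, stood at 988 against 303 and 1050 against 668 CPM (1.06 ± 0.27). Calr, a chaperone that loads it, stood at 735 against 550 and 788 against 499 CPM and was not called. Of 13 MHC class II genes 1 was tested and not called, and the list as a whole held between 33 and 64 UMIs in each sum, so that a difference in MHC class II was not detectable at this depth.

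Of 36 interferon response genes 6 were tested, with a median of 0.56. The median was -0.08 in library 1 and 0.84 in library 2. Bst2 and Lgals3bp were higher (against 9.78% of all genes tested) and none was lower. Both calls were lost by DESeq2, without either library and in cells with at most 10% mitochondrial UMIs. Bst2, tetherin, stood at 190 against 37.9 and 219 against 84.9 CPM (1.64 ± 0.56). It passed the filter only through the DAM sums, so this difference is a value with no test. Lgals3bp, a secreted galectin-binding glycoprotein, stood at 849 against 322 and 962 against 467 CPM (1.19 ± 0.28). Ifi27l2a, an interferon-induced gene under the filter, had 9 and 10 UMIs in DAM against 0 and 1, a ratio of 17.5 (2.77 to 725), and was found in 14 of 29 DAM cells and 1 of 50 homeostatic cells. Irf7, an interferon regulatory factor, had 5 and 5 UMIs in DAM and 0 in both homeostatic sums. By contrast Irf1, another factor of the list under the filter, had 1 UMI in DAM and 12 in homeostatic cells (ratio 13.1 in favour of homeostatic cells, interval 1.93 to 558). Stat2, Irf9 and Ifit3 held between 1 and 10 UMIs in every sum.

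The B2m promoter is shown because it carries interferon-type letters, GAAA followed by any 2 bases and GAAA again (both strands searched), in capitals, 139 bases before its start site, at GRCm38.p6 chr2:122147437-122147736 on the plus strand.
B2m: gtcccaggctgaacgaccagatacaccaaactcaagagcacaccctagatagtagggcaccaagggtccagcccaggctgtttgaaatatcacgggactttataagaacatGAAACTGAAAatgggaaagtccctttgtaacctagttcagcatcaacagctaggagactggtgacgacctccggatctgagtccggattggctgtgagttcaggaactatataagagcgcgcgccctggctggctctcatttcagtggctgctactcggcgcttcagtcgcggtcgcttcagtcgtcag
The Bst2 window held the same letters 2 times, overlapping each other, and the H2-D1 window did not. The letters were found in 3.44% of all promoter windows, 4.99% of the genes tested and 8% of the genes higher in DAM.

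Receptors and adaptors of phagocytosis did not move as a group. Of 45 genes 23 were tested, with a median of 0.22. Axl, Clec7a and Tyrobp were higher (against 9.78% of all genes tested) and none was lower. Tyrobp, the signalling adaptor of Trem2, stood at 1153 against 910 and 1415 against 615 CPM (0.78 ± 0.25, edgeR adjusted p = 0.0183). The log2 difference was 0.33 in library 1 and 1.17 in library 2. The call was lost in 13 alternative settings, DESeq2 among them. Of 18 complement genes 7 were tested and none was called. The C1q chains were abundant in both subtypes. C1qa stood at 2205 against 1422 and 1546 against 1262 CPM, C1qb at 7806 against 5857 and 7773 against 6873 CPM, and C1qc at 5424 against 5212 and 6023 against 4974 CPM. Their log2 fold changes were 0.46 ± 0.24, 0.29 ± 0.21 and 0.17 ± 0.22, and those of C1qb and C1qc turned negative in some settings.

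Lipid and iron genes were represented by few abundant members. Of 48 lipid genes 7 were tested, with a median of 0.00. Apoe, Lpl and Npc2 were higher (against 9.78% of all genes tested) and none was lower. Plin2, a coat protein of lipid droplets, was under the filter with 8 and 6 UMIs in DAM against 0 and 2, and Fabp5, a fatty acid carrier, with 7 and 6 against 1 and 2. Of 15 iron genes 4 were tested, and both ferritin chains were higher. Ftl1, the light chain, stood at 1267 against 360 and 1371 against 445.5 CPM (1.70 ± 0.27). Fth1, the heavy chain, stood at 2066 against 910 and 2567 against 1761 CPM (0.83 ± 0.24), with the larger difference in library 1.

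Chemokines were among the largest differences of the sums but came from few cells. Of 42 cytokine and chemokine genes 8 were tested, with a median of 2.36. Among them 6 were higher (against 9.78% of all genes tested) and none was lower. Ccl3, Ccl4, Ccl6, Csf1 and Mif passed the filter only through the DAM sums, so their differences are values with no test. With at least 10 UMIs in each sum 1 gene was left to test, with a log2 fold change of 0.785. Ccl4, an inflammatory chemokine, stood at 1457 against 37.9 CPM in library 1 and at 977 against 42.4 CPM in library 2 (4.77 ± 0.41). It was found in 5 of 16 and 3 of 13 DAM cells, and 1 cell held 63 of 115 UMIs in library 1 and 65 of 67 UMIs in library 2. Without the highest cell of each sum, 52 and 2 UMIs were left in DAM against 1 and 3 in homeostatic cells, so the difference remained in library 1 alone. Its neighbour Ccl3, another such chemokine, stood at 1217 against 171 and 875 against 117 CPM (2.86 ± 0.33), and without the highest cell 35 and 6 UMIs were left against 5 and 8. The highest cell was the same for Ccl3 and Ccl4 in each library. Csf1, the ligand of the receptor that keeps microglia alive, had 13 and 18 UMIs in DAM and 0 and 3 in homeostatic cells, and 15 of the 18 were in the highest Ccl4 cell of library 2. Mif, a secreted tautomerase, was spread more widely, with 37 UMIs in 14 of 29 DAM cells against 3 UMIs in 3 of 50 homeostatic cells (ratio 11.3, interval 3.59 to 57.4). It was also found in 53 of 84 NSPCs, and in thinned cells in 13.8% of DAM, 2% of homeostatic cells and 10.7% of NSPCs. Tnf, under the filter, had 7 and 4 UMIs against 1 and 1.

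Part of the glycolysis list was higher in DAM, with 5 of the 8 tested of 24 called higher and none lower. The median was 1.24, and 9.78% of all genes tested were called higher. Gapdh stood at 1153 against 550 and 1619 against 541 CPM (1.35 ± 0.26) and Pkm, pyruvate kinase, at 798 against 398 and 1167 against 499 CPM (1.13 ± 0.27). Ldha, lactate dehydrogenase, stood at 507 against 152 and 248 against 127 CPM (1.35 ± 0.43), and Tpi1 and the hypoxia-responsive factor Hif1a were also higher. Ldha, Tpi1 and Hif1a passed the filter only through the DAM sums, so their differences are values with no test. All 5 calls were lost by DESeq2 and without library 2, 1 was left without library 1, and 2 were left without the library block or without TMM scaling. Of 86 nuclear genes of oxidative phosphorylation 16 were tested, with a median of 0.36. Only Cox7c was called higher (1.31 ± 0.43), and it passed the filter only through the DAM sums. Of 13 mitochondrially encoded genes 12 were tested and none was called, with a median of 0.08.

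Cytosolic ribosomal protein genes formed the broadest group. Of 79 genes 65 were tested, all 65 lay above 0, and 28 were called higher (against 9.78% of all genes tested), with a median of 0.65. Of the 58 outside the variable set 23 were called higher, against 6.50% of all genes tested there. Rpl7 stood at 988 against 322 and 1065 against 499 CPM (1.31 ± 0.28, edgeR adjusted p = 9.11e-05) and Rpl10a at 963 against 493 and 1065 against 382 CPM (1.24 ± 0.27, edgeR adjusted p = 0.000222). They took 4.54% and 4.20% of the UMIs of DAM and 3.10% and 2.98% of those of homeostatic cells. The number of calls depended on the setting, with 4 without TMM scaling, 5 without the library block, 10 without the highest cell of each gene and 0 by DESeq2. The calls of Rpl7 and of Rpl10a were each lost in 5 alternative settings, DESeq2 among them. The median stayed between 0.45 and 0.82 in all settings run, with 0.62 without library 1 and 0.66 without library 2. Reads of processed copies of these genes may be included.

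Immediate early and heat shock genes, which respond to dissociation, were not called in either direction. Of 34 genes 12 were tested, with a median of -0.34. Jun stood at 342 against 701 and 394 against 573 CPM and Zfp36 at 190 against 512 and 394 against 499 CPM. Under the filter, the heat shock gene Hspa1a had 2 UMIs in DAM and 21 in homeostatic cells and Klf4 had 1 and 11. Of 43 cell cycle genes 5 were tested and none was called, with a median of -0.01.

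**Figure D3:**
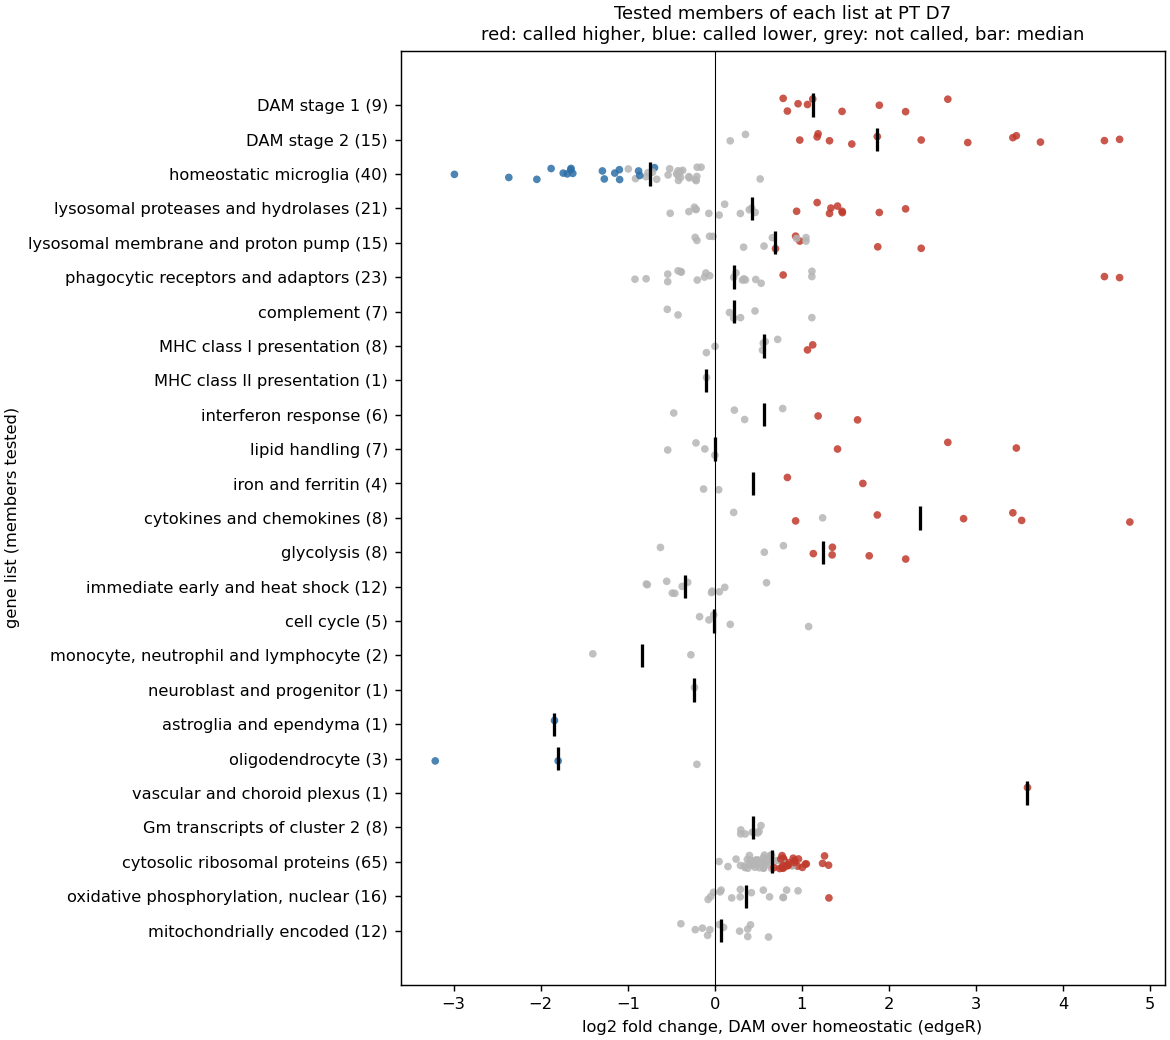
Log2 fold change, DAM over homeostatic microglia, of each tested member (points) of 25 gene lists (rows, with the number tested), called higher (red), called lower (blue) or not called (grey), with black bars at the medians. Early- and late-stage DAM genes, cytokines, glycolysis and ribosomal proteins lie to the right, and homeostatic genes to the left.

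Markers of other macrophages and leukocytes were few in both subtypes. Of 20 markers of border-associated macrophages none was tested, 6 were at 0, and the list held between 16 and 54 UMIs in each sum. Its defining genes Cd163 and Pf4 were at 0 in all 4 sums, and Mrc1 had 2 and 1 UMIs in DAM. The monocyte, neutrophil and lymphocyte list of 28 held 26 to 63 UMIs, 15 of its members were at 0, S100a8, S100a9, Ly6g and Ly6c2 among them, and Ccr2 had 2 UMIs in 1 homeostatic sum. Neuroblast and progenitor markers took between 0.08% and 0.14% of the UMIs in DAM and 0.12% and 0.23% in homeostatic cells, of which Tuba1a held the most and was not called. Of the astroglial and ependymal list Slc1a3 passed the filter, through the homeostatic sums only, and was lower in DAM (-1.85 ± 0.54). This difference is a value with no test.

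Oligodendrocyte transcripts were higher in the homeostatic cells, most of all in library 2. Mbp, myelin basic protein, had 4 and 9 UMIs in DAM against 11 and 152 in homeostatic cells (-3.21 ± 0.39). In library 1 the Mbp levels were 50.7 and 208 CPM, and in library 2 they were 131 and 1612 CPM. The list of 18 markers took 0.0888% and 0.0481% of the UMIs in DAM and 0.127% and 0.221% in homeostatic cells. Ttr, transthyretin of the choroid plexus, had 132 and 41 UMIs in DAM against 1 and 11 in homeostatic cells (3.58 ± 0.37), and 1 DAM cell held 118 of the 132 and 1 held 35 of the 41. Mbp passed the filter only through the homeostatic sums and Ttr only through the DAM sums, so their differences are values with no test. Other choroid plexus genes on the list, Kl, Folr1 and Kcnj13, were at 0 in all 4 sums. UMIs of at least 3 of the neuroblast and progenitor genes, some of which other cells also express, were found in 17 of 29 DAM and 29 of 50 homeostatic cells, 23 of the 29 being in library 2. Without these cells 24 of 291 genes tested were called, 10 higher and 14 lower in DAM.

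Across the series, in CPM of all UMIs of a sum with no TMM scaling, DAM at PT D7 had more Apoe and Cd52 than the other subtypes. Apoe was at 10206 and 13781 in DAM at PT D7, at 1281 and 3134 in homeostatic cells of the same libraries, at 1306 and 1358 in homeostatic cells of uninjured mice and at 1698 and 2288 in the Activated MG of 1 day after PT. Cd52 was at 481 and 705 in DAM and at most 114 in the other subtypes. P2ry12 was at 574 and 481 in DAM, at 2066 and 1604 in PT D7 homeostatic cells, at 1904 and 2127 in uninjured homeostatic cells and at 415 and 218.5 in Activated MG. P2ry12 of DAM thus lay between homeostatic cells and the Activated MG. These conditions were not tested against each other here.

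For Lgals3bp and B2m the levels in homeostatic cells of PT D7 and of uninjured mice are given as values with no test. Lgals3bp was at 272 and 358 in homeostatic cells of PT D7 and at 85.9 and 91.8 in those of uninjured mice, and B2m at 2546 and 2483 against 1628 and 1681. DAM at PT D7 were at 620 and 705 for Lgals3bp and at 4802 and 5160 for B2m. How many of all genes show such an order of the groups was not counted. The 6 DAM of the uninjured libraries, which held 56838 UMIs together, had Apoe at 9078, Cd52 at 211 and Tmem119 at 669, but Ccl4 at 35.2 and Spp1 at 17.6, the last from 1 UMI. The 2 DAM of 1 day after PT had Apoe at 39908 and Cd52 at 384, the latter from 4 UMIs, so that high Apoe was also found in DAM outside PT D7.

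**Figure D4:**
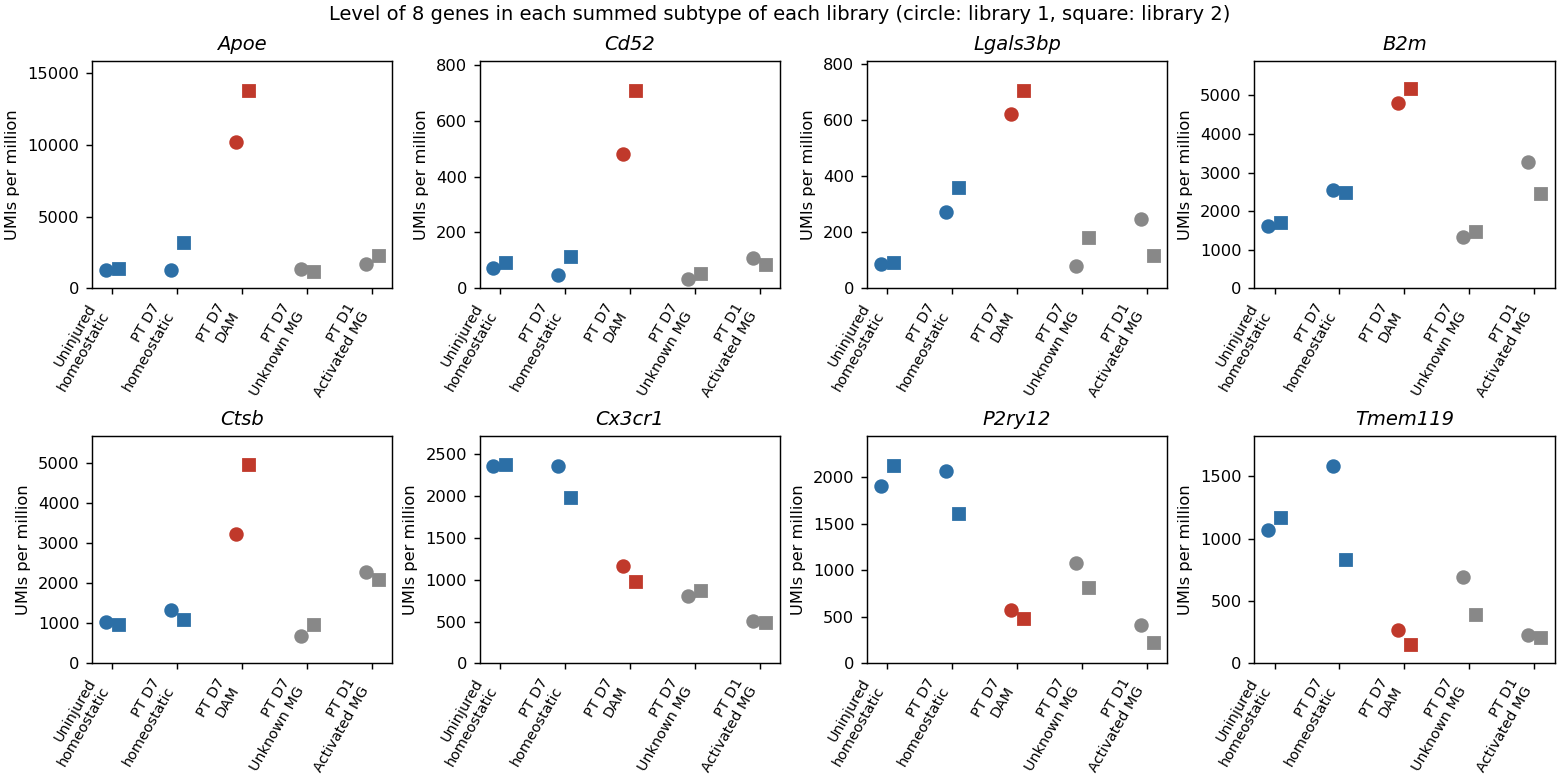
CPM of all UMIs (y axis) of 8 genes in the summed cells of 5 microglial groups, 1 point per library (circle for library 1, square for library 2), with DAM in red, homeostatic cells in blue and other subtypes in grey. The DAM points lie above all others for Apoe, Cd52, Lgals3bp, B2m and Ctsb, and homeostatic points lie above all others for Cx3cr1, P2ry12 and Tmem119.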

How the data were processed

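The authors deposited a table of UMI counts per gene and cell with their cell annotation, made from mCEL-Seq2 libraries of single sorted cells (bcl2fastq 2.17.1.14 and build GRCm39 per the labels). Cells had more than 1000 UMIs and at most 25% mitochondrial UMIs, and doublets were left out at the sort and by their UMI number. For the aligner, counter and annotation nothing was given in the sources used here. The subtypes are the authors' annotation (Seurat, 2000 variable genes, 7 principal components), and the other 15 columns of the cell table were not used. The table held 34203 rows, of which 92 were ERCC spike-ins, and no row was left out of the sums.

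Counts were summed per subtype and library over the 29 DAM and 50 homeostatic cells. The 4 sums were fitted with edgeR 4.0.16 in R 4.3.3 (filterByExpr, TMM, quasi-likelihood test, library as block, Benjamini-Hochberg adjustment), with DESeq2 1.42.0 as an alternative. The fit had 1 residual degree of freedom, so that it took its spread from the trend over all genes, and an exact paired test of 2 libraries cannot give a two-sided p below 0.5. The libraries pair the sums because both subtypes were sorted into the same libraries, and the deviations of the sums of a library from the subtype means correlated with r = 0.125 over 1104 genes. All 198 PT D7 cells were distinct, and 47 well numbers occurred in both libraries. The 2000 variable genes were rebuilt with Seurat 5.3.0 and sctransform 0.4.2 on all microglia. Ratios of genes with 3 or fewer UMIs in a subtype were given with exact 95% intervals, or against 3 UMIs where a subtype had 0, and cover counting error only. Gene positions are from GENCODE on GRCm39. Promoter windows are from RefSeq on GRCm38.p6, and no coordinates were converted.

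Named genes were the 5 markers, genes named for these subtypes in the study, the 12 largest called differences in each direction with at least 100 CPM and the same direction in both libraries, up to 4 genes from each of 26 lists, and the 8 largest in each direction outside the variable genes. Other genes of the lists, such as those under the filter, were named after their values were seen. The members, lists and tests were chosen with earlier results of these data known. The fitting script was checked on simulated counts. In all, 15 alternatives were planned, and the removal of the highest cell of each gene in each sum was chosen after seeing the data.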

Additional observations from a re-analysis of the deposited data

How the results depend on the processing

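The number of called genes (187, and 97 outside the variable genes) depended on the processing. It was 15 and 1 with DESeq2, 117 and 52 without TMM scaling, 42 and 7 without a filter on low counts, 88 and 47 with at least 10 UMIs in each sum, and 86 and 40 in cells with at most 10% mitochondrial UMIs. It was 26 and 8 in cells thinned to 1000 UMIs, 114 and 52 in sums thinned to equal totals, 24 and 6 without cells that held UMIs of at least 3 genes of the neuroblast and progenitor list (below, neural genes), and 118 and 61 without the highest cell of each gene. With all microglia sums in the fit 62 genes outside the variable set were called. Without the replicate block, that is without the pairing by library, it was 69 and 23. Without 1 library it ranged from 18 to 54, and from 2 to 15 outside the variable genes, in fits over all microglia sums without library terms, where a lone sum was assumed to vary like the others. Against all other microglia of PT D7 edgeR called 0 and 0, with 366 genes at an unadjusted p under 0.05, and DESeq2 called 18. DESeq2 size factors in edgeR (179), cells with at least 2000 UMIs (157) and leaving out 3000 variable genes (73 called) stayed within 1.5 times. Smaller sums left fewer genes to test (183 after thinning to 1000 UMIs); for the other settings the cause was not tested.

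The share of calls that were higher in DAM was 57.8%, but 36.8% without TMM scaling, 39.8% with at least 10 UMIs in each sum, 44.9% without the highest cells, 46.7% with all microglia sums in the fit, 47.4% in sums thinned to equal totals, 41.7% without cells with 3 neural genes, 68.1% without the block and 78.6% without a filter. C1qc turned negative without TMM scaling (-0.0514), without library 2 (-0.0684, against 0.30 without library 1), in cells with at most 10% mitochondrial UMIs (-0.14), in thinned cells (-0.26) and without cells with 3 neural genes (-0.0930), C1qb in thinned cells (-0.21) and without cells with 3 neural genes (-0.11), and Cd68 without those cells (-0.48). In each setting at most 3 of the called genes tested there changed sign. Called in the main comparison, by DESeq2, without the block, without TMM scaling and without each library were 13 genes, namely Lyz1, Apoe, Ccl3, Ccl4, Cd52, Cd63, Ctsb, Ftl1 and Lpl higher in DAM and P2ry12, P2ry13, Selplg and Tmem119 lower. All of these genes are among the 2000 variable genes, so they describe how the clusters were made and do not test them. Of these, Cd52, Ccl3, Ccl4 and Lpl passed the filter only through the DAM sums. Depth limits the comparison to 1104 of 34203 rows, so that markers such as Spp1, Cst7 and Itgax could only be given as UMIs.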

Other observations

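Genes that the report does not describe also differed between the subtypes. Among the 79 genes called lower in DAM were the keratin genes Krt5, Krt6a and Krt12, and Aldh3a1, Slurp1, Ly6g6c and Asprv1. All of them are variable genes, and Slurp1, Ly6g6c and Asprv1 passed the filter only through the homeostatic sums. Whether these transcripts came from the microglia themselves was not tested. Vsir, the inhibitory receptor VISTA, was lower in DAM outside the variable genes, with a log2 fold change of -1.15 ± 0.29 (edgeR adjusted p = 0.00138). The organic anion transporter gene Slco2b1 differed by -1.29 ± 0.30 (edgeR adjusted p = 0.000365) and the small GTPase gene Rhob by -1.10 ± 0.29 (edgeR adjusted p = 0.00296). Each had the same direction in both libraries, and none was among the genes called by DESeq2. Gpnmb, a glycoprotein of lysosomes and melanosomes that is often used as a DAM marker, had 11 UMIs in DAM and 1 in homeostatic cells, and 1 DAM cell of library 2 held 10 of the 11. The 2 DAM of 1 day after PT held 12 UMIs of Spp1 among 10424 UMIs.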
